A study of Homo sapiens with 8 samples.

Results

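Aminoacyl-tRNA synthetases attach each amino acid to its transfer RNA, and the mRNAs of 40 genes of this machinery were followed in human cells deprived of serine and glycine. The genes were taken by symbol from both deposited expression tables, each of which lists 57884 genes. They comprise 20 cytosolic synthetase subunits, 16 mitochondrial synthetases (symbols ending in 2), 3 scaffold proteins of the multisynthetase complex (AIMP1, AIMP2 and EEF1E1) and XPOT, the exportin that carries mature tRNA out of the nucleus. GARS and KARS each encode the enzyme of both compartments and were counted with the cytosolic set. All 40 were listed once in each table and passed the filter on low values.

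The cells were hTERT-RPE1, a line from human retinal pigment epithelium that telomerase keeps dividing. The groups were ATF3(-/-) cells in serine/glycine-free medium for 8 h, ATF3(-/-) cells in complete medium (0 h), wildtype cells in serine/glycine-free medium for 8 h and wildtype cells in complete medium (0 h). Cells had first grown in complete medium for 2 days, per the labels, while the sources used here do not give how the knockout was made or whether it is 1 clone. Each group held 2 libraries, numbered by batch, and the batches are independent experiments a week apart. The comparison of the media asks how synthetase mRNAs respond when serine and glycine are withdrawn, and the comparison of the genotypes asks whether that response depends on ATF3, a stress-induced transcription factor.

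Expression is in FPKM, which scales fragments by transcript length and library size, so levels of different genes are per length and can be set side by side. Absolute depth is unknown; from the steps between low values, relative depth ran from 1.00 to 1.28 over the 8 libraries. ATF3 mRNA was 4.45 and 57.3 FPKM in ATF3(-/-) serine/glycine-free libraries and 3.38 and 20.8 FPKM in ATF3(-/-) complete libraries (batch 1, then batch 2), against 6.46 and 18.0 FPKM in wildtype serine/glycine-free libraries and 3.47 and 3.65 FPKM in wildtype complete libraries. The ATF3 mRNA thus does not check the genotype label, and the libraries are called "labelled knockout" below. Both batch 2 libraries labelled knockout also stood apart in cell markers. Their summed FPKM of 5 simple epithelial markers was 468 in serine/glycine-free and 539 in complete medium, against 87.1 to 342 in the 6 others. CDH1 stood at 56.2 and 59.96 FPKM there, against at most 1.23, and KRT18, EPCAM and ESRP1 were also highest there. KRT8 was not, at 148 and 185 FPKM against 213 and 249 FPKM in wildtype batch 1. The summed FPKM of 5 mesenchymal markers in the same libraries was 181 and 174, against 674 to 1746 in the others. VIM (102 and 118 FPKM) and CDH2 (20.7 and 14.5 FPKM) were lowest there. FN1, at 56.7 and 38.3 FPKM, was not. SPARC and COL1A1 reached at most 1.66 and 2.53 FPKM in every batch 2 library, wildtype included, against at least 343 and 7.72 FPKM in batch 1. Wildtype also differed between batches in the simple epithelial sum. It was 310 in serine/glycine-free and 342 in complete medium in batch 1, against 87.1 and 114 in batch 2. Of 10 retinal pigment epithelium markers 6 stayed under 1 FPKM in every library and OTX2 was listed at 0, and all 3 immune markers stayed under 1 FPKM. Across genes, which are not independent replicates, r was 0.920 to 0.957 between libraries within a batch and 0.768 to 0.815 between batches, and media were compared within a batch.

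As background, an uncharged tRNA activates the kinase GCN2, which phosphorylates the translation factor eIF2. General translation then slows while translation of the transcription factor ATF4 increases. ATF4 binds composite C/EBP-ATF response elements in the promoters of amino acid transport and synthesis genes and of several cytosolic synthetases. Synthetases fall into classes I and II by the fold of their catalytic domain, and several cytosolic ones are held in the multisynthetase complex while the others act free of it. Mitochondrial synthetases are encoded in the nucleus, imported, and charge the tRNAs that mitochondria make.

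The promoter windows that hold the core of that element are shown because their genes include many of the most responsive ones. RefSeq windows (GRCh38.p14) from 250 bases before to 50 after a gene's start matched 34 of the 40 genes by symbol; there was none for DARS, LARS, VARS, YARS, AARS2 and VARS2. The letters TGATGNAA, searched on both strands, were found in 8 genes. Capitals mark the match, and sequences run 5′ to 3′ on the strand of the gene.
AARS: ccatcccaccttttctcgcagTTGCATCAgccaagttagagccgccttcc
CARS: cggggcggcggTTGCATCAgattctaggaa
GARS: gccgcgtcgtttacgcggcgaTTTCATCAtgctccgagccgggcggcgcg
IARS: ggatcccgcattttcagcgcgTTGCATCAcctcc
MARS: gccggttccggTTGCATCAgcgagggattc
NARS: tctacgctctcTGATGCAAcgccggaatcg
TARS: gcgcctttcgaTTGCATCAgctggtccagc
YARS2: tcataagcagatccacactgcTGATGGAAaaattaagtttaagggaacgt

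In GRCh38.p14 these stretches are AARS chr16:70289665-70289714 (minus strand), CARS chr11:3057407-3057436 (minus), GARS chr7:30594824-30594873 (plus), IARS chr9:92293698-92293731 (minus), MARS chr12:57488053-57488082 (plus), NARS chr18:57621804-57621833 (minus), TARS chr5:33440956-33440985 (plus) and YARS2 chr12:32756066-32756115 (minus). Counting the annotated start as 1 and the base before it as -1, the match began within 33 bases of the start in 6 genes, at position -33 in GARS, -13 in IARS, -4 in MARS, -2 in CARS, 3 in TARS and 15 in NARS, and farther upstream at -187 in AARS and -197 in YARS2. CARS, GARS and TARS each have 2 windows, for 2 annotated starts, and only 1 of the 2 holds the match. The 6 matches in AARS, CARS, IARS, MARS, NARS and TARS read TTGCATCA or its reverse complement TGATGCAA, while GARS has TTTCATCA. By class the core was found in 7 of 16 cytosolic genes, in 0 of 4 scaffold and export genes, and in 1 of 14 mitochondrial genes. Over all RefSeq windows 3.62% of 35116 held it, or 4.46% of 27305 genes.

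Most cytosolic synthetase mRNAs were higher in serine/glycine-free medium, while the median mitochondrial response was near 0. Averaged over the 4 pairs of libraries, the serine and glycine enzymes, SARS and GARS, led the cytosolic genes. The order varied by pair. CARS (cysteine) was ahead of SARS in wildtype batch 2 (log2 response 1.75 against 1.48). It was ahead of GARS in labelled-knockout batch 1 (1.03 against 0.98). In the remaining pairs SARS and GARS were both ahead of CARS. SARS, the seryl-tRNA synthetase, rose 2.34-fold to 2.93-fold across the 4 pairs of libraries, and WARS, the tryptophanyl-tRNA synthetase, rose 1.92-fold to 2.35-fold. Of 20 cytosolic genes 16 were higher in all 4 pairs, as were 4 of 4 scaffold and export genes and 6 of 16 mitochondrial genes, against 14.6% of the 17994 genes tested. Without the batch 2 pair labelled knockout, 16 cytosolic, 4 scaffold and export and 7 mitochondrial genes were higher in the other 3 pairs, against 19.8% of all genes tested. A response here is the log2 difference of FPKM + 1, serine/glycine-free minus complete, so it understates the change of low genes. Whether fewer cells of a type or less RNA per cell set such a difference cannot be told apart in bulk RNA.

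SARS had 218 and 127 FPKM in labelled-knockout serine/glycine-free libraries (batch 1, then batch 2, as in all pairs of values that follow), against 74.3 and 54.3 FPKM in labelled-knockout complete libraries. In wildtype it had 221 and 157 FPKM in serine/glycine-free medium, against 78.8 and 55.6 FPKM in complete medium. Every deprived library was above every complete one, and the responses of 1.54 and 1.21 in the labelled knockout and 1.48 and 1.48 in wildtype spanned a narrower range than those of GARS and CARS. In limma's fit of all 17994 genes, with the batch as a block and p adjusted by Benjamini-Hochberg, the mean response of SARS was 1.43 ± 0.10 (SE; adjusted p = 0.0199). SARS lies alone at its locus in the deposited tables (hg19 chr1:109756539-109780791).

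GARS, the glycyl-tRNA synthetase of both compartments, had 154 and 106 FPKM in labelled-knockout deprived libraries, against 77.5 and 36.6 FPKM in labelled-knockout complete libraries, and in wildtype 172 and 129.6 FPKM in deprived medium, against 71.8 and 35.8 FPKM in complete medium. Its ratios ran from 1.99 to 3.62, and all deprived libraries were above all complete ones. The mean response was 1.39 ± 0.15 (limma adjusted p = 0.0558), just above the threshold of 0.05, so it was not called. Batch 2 gave the larger response under both labels, 1.51 against 0.98 in batch 1 in the labelled knockout and 1.83 against 1.25 in wildtype. GARS shares its locus in the files with GGCT, among others, so reads of overlapping transcripts may be split between them.

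WARS was 56.6 and 63.0 FPKM in labelled-knockout deprived libraries, against 29.04 and 32.9 FPKM in labelled-knockout complete ones, and 61.5 and 72.0 FPKM in wildtype deprived libraries, against 27.2 and 30.6 FPKM in wildtype complete ones. The groups of media did not overlap, and the mean response of 1.05 ± 0.10 passed the test (limma adjusted p = 0.0413). WARS is also known as an interferon-induced gene. SARS and WARS were the 2 of 40 genes called higher in the mean response, against 0.111% of all genes tested. Neither call held with 7 libraries, whichever of the 8 was omitted, with limma adjusted p of 0.0725 to 0.182 for SARS and 0.143 to 0.283 for WARS, while their responses then stayed within 1.35 to 1.501 and 1.04 to 1.07.

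The other free synthetases with large responses were CARS (cysteine), YARS (tyrosine), AARS (alanine), TARS (threonine) and NARS (asparagine). CARS had 39.8 and 34.3 FPKM in labelled-knockout deprived libraries, against 19.1 and 15.1 FPKM in the complete ones, and 52.0 and 52.6 FPKM in wildtype deprived libraries, against 25.6 and 14.9 FPKM in the complete ones. YARS had 55.0 and 50.5 FPKM in labelled-knockout deprived libraries, against 34.2 and 23.7 FPKM in complete ones, and 84.0 and 64.9 FPKM in wildtype deprived libraries, against 44.2 and 23.3 FPKM in complete ones. In both genes every deprived library was above every complete library, and wildtype batch 2 had the largest response, 1.75 for CARS and 1.44 for YARS. AARS was at 60.9 and 68.0 FPKM in labelled-knockout deprived libraries, against 37.0 and 36.3 FPKM in complete ones, and at 69.2 and 57.7 FPKM in wildtype deprived libraries, against 35.4 and 25.9 FPKM in complete ones. TARS was at 217 and 249 FPKM in labelled-knockout deprived libraries, against 136 and 134 FPKM in complete ones, and at 238 and 212 FPKM in wildtype deprived libraries, against 138 and 109 FPKM in complete ones. Neither gene's media overlapped. NARS was at 80.8 and 125 FPKM in labelled-knockout deprived libraries, against 54.2 and 76.3 FPKM in complete ones, and at 101 and 142 FPKM in wildtype deprived libraries, against 60.1 and 70.0 FPKM in complete ones. The mean responses were 1.22 ± 0.15 for CARS, 1.02 ± 0.15 for YARS, 0.92 ± 0.13 for AARS, 0.82 ± 0.12 for TARS and 0.76 ± 0.11 for NARS. Their limma adjusted p ran from 0.0906 for CARS to 0.140 for the other 4, so none was called.

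**Figure D1:**
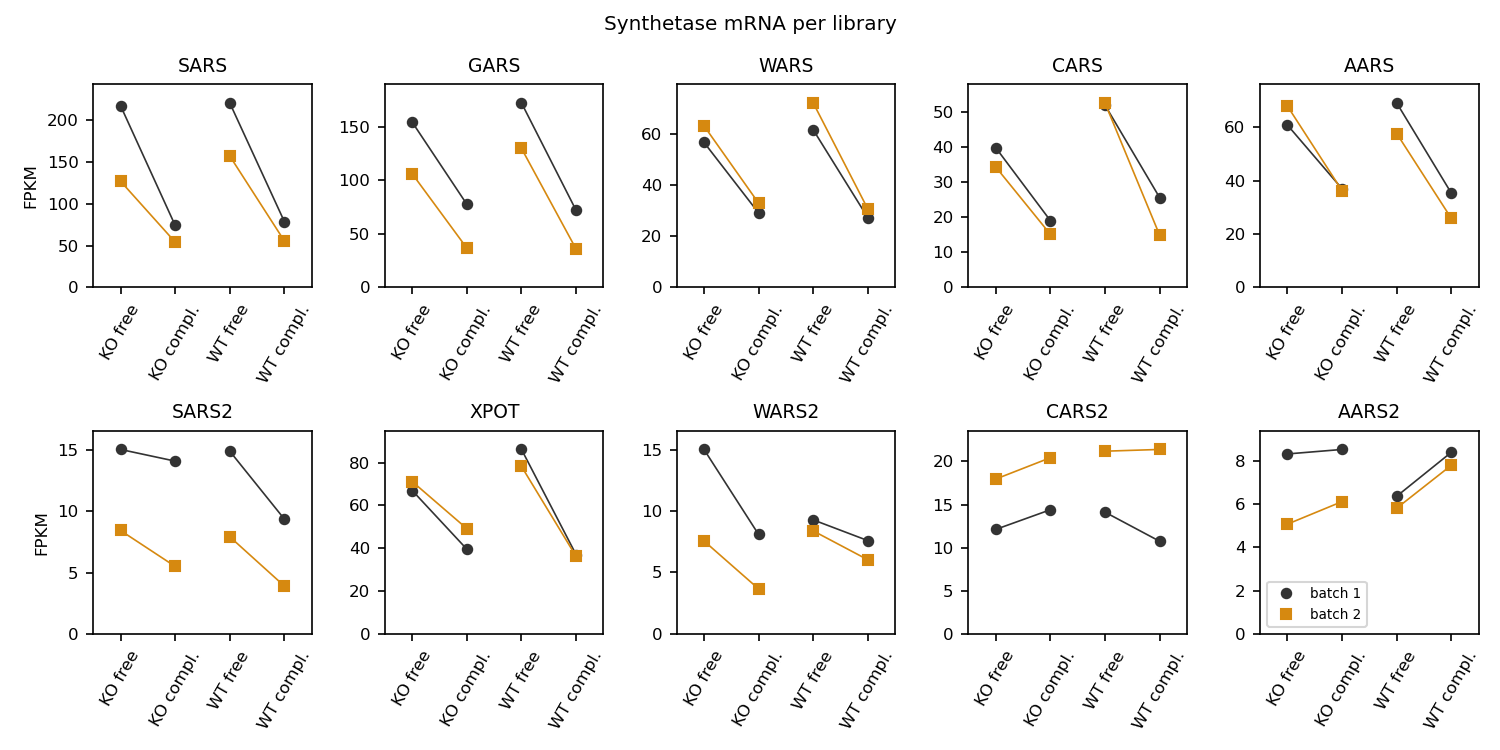
FPKM of 10 genes in each library, with serine/glycine-free (free) left of complete (compl.) medium and labelled knockout (KO) left of wildtype (WT); lines join the media of 1 batch, and each axis starts at 0. SARS, GARS, WARS, CARS, AARS and XPOT are higher in serine/glycine-free medium in all 4 pairs, SARS2 and WARS2 at lower levels likewise, and AARS2 is lower in all 4.

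At the other end of the free enzymes, VARS (valine), HARS (histidine) and both subunits of the phenylalanine enzyme, FARSA and FARSB, had smaller mean responses. VARS was 32.4 and 30.4 FPKM in labelled-knockout deprived libraries, against 33.7 and 26.5 FPKM in complete ones, and 29.6 and 28.4 FPKM in wildtype deprived libraries, against 27.4 and 27.8 FPKM in complete ones. FARSA was 27.8 and 69.0 FPKM in labelled-knockout deprived libraries, against 21.5 and 64.4 FPKM in complete ones, and 17.6 and 69.4 FPKM in wildtype deprived libraries, against 24.6 and 72.3 FPKM in complete ones. Both genes' media overlapped, and FARSA was higher in every batch 2 library than in any batch 1 library. The mean responses were 0.07 ± 0.11 for VARS, -0.02 ± 0.13 for FARSA and 0.23 ± 0.17 for HARS (limma unadjusted p = 0.569, 0.912 and 0.223). FARSB, the beta subunit, stood at 0.35 ± 0.13 (unadjusted p = 0.0314, adjusted p = 0.440) and was higher in all 4 pairs.

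Within the multisynthetase complex the responses split. MARS (methionine), IARS (isoleucine), EPRS, which charges both glutamate and proline, and LARS (leucine) were higher in all 4 pairs, with mean responses of 0.77 ± 0.17, 0.66 ± 0.12, 0.61 ± 0.14 and 0.45 ± 0.10 and unadjusted limma p of 0.00402, 0.00125, 0.00583 and 0.00361. DARS (aspartate), KARS (lysine), RARS (arginine) and QARS (glutamine) had mean responses of 0.21 ± 0.10, 0.08 ± 0.10, 0.04 ± 0.10 and -0.10 ± 0.15, with unadjusted p from 0.0808 for DARS to 0.707 for RARS. None of the 8 passed adjustment over all genes, the smallest adjusted p being 0.212 for IARS.

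MARS had 126 and 138 FPKM in labelled-knockout deprived libraries, against 93.8 and 67.9 FPKM in complete ones, and 141 and 116 FPKM in wildtype deprived libraries, against 96.7 and 53.1 FPKM in complete ones. Its response was larger in batch 2 under both labels, 1.01 against 0.42 in the labelled knockout and 1.11 against 0.54 in wildtype. MARS shares its locus with DDIT3, a stress-induced transcription factor gene, which stood at 17.6 and 61.3 FPKM in labelled-knockout deprived libraries, against 6.44 and 23.5 FPKM in complete ones, and at 59.6 and 53.1 FPKM in wildtype deprived libraries, against 7.07 and 14.99 FPKM in complete ones; its part in the MARS values was not tested. IARS had 137 and 103 FPKM in labelled-knockout deprived libraries, against 95.1 and 59.7 FPKM in complete ones, and 164 and 98.8 FPKM in wildtype deprived libraries, against 109 and 58.3 FPKM in complete ones. LARS, also described as a leucine sensor for mTORC1, had 76.3 and 75.7 FPKM in labelled-knockout deprived libraries, against 60.9 and 54.2 FPKM in complete ones, and 73.9 and 75.5 FPKM in wildtype deprived libraries, against 53.4 and 51.3 FPKM in complete ones. LARS showed no overlap of the media, and IARS did, with batch 1 the higher in both media.

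EPRS had 55.7 and 101 FPKM in labelled-knockout deprived libraries, against 43.0 and 65.3 FPKM in complete ones, and 65.7 and 87.8 FPKM in wildtype deprived libraries, against 44.2 and 47.8 FPKM in complete ones. QARS, by contrast, had 139 and 66.1 FPKM in labelled-knockout deprived libraries, against 163 and 77.3 FPKM in complete ones, and 139 and 105 FPKM in wildtype deprived libraries, against 144 and 98.2 FPKM in complete ones. QARS was lower in 3 of 4 pairs, and its media overlapped. KARS was the steadiest cytosolic gene, at 99.9 and 93.3 FPKM in labelled-knockout deprived libraries, against 94.3 and 87.2 FPKM in complete ones, and at 99.1 and 84.4 FPKM in wildtype deprived libraries, against 97.9 and 78.3 FPKM in complete ones; its 4 ratios lay between 1.01 and 1.08. RARS had ratios of 0.889 to 1.13 and DARS of 1.12 to 1.20.

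The 8 synthetases of the complex had a median mean response of 0.33 and the 12 free cytosolic ones 0.87. At unadjusted limma p under 0.05, 4 of 8 and 9 of 12 were higher, against 6.16% of all genes tested. The free set had the higher median in each of the 4 pairs, 0.67 to 1.07 against 0.25 to 0.40. By catalytic class the cytosolic medians were close, 0.66 for the 9 class I enzymes and 0.55 for the 10 class II enzymes, EPRS holding a domain of each. These are descriptions of chosen sets, with no test.

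The scaffold and export genes were higher in all 4 pairs. XPOT had 66.9 and 71.1 FPKM in labelled-knockout deprived libraries, against 39.5 and 49.1 FPKM in complete ones, and 86.1 and 78.2 FPKM in wildtype deprived libraries, against 37.0 and 36.2 FPKM in complete ones. The mean response of XPOT was 0.89 ± 0.12 (limma adjusted p = 0.104), and no deprived library lay below a complete one. AIMP1, a scaffold also secreted as a cytokine precursor, had 22.1 and 20.4 FPKM in labelled-knockout deprived libraries, against 18.3 and 13.6 FPKM in complete ones, and 28.3 and 20.6 FPKM in wildtype deprived libraries, against 18.6 and 14.8 FPKM in complete ones. The mean responses of the 3 scaffolds were smaller, 0.46 ± 0.12 for AIMP1, 0.31 ± 0.10 for AIMP2 and 0.22 ± 0.13 for EEF1E1, with unadjusted limma p of 0.00867, 0.0233 and 0.136. Each scaffold shares its locus with a coding gene of 10 FPKM or more (TBCK, EIF2AK1 and TXNDC5), and the part of such overlaps was not tested.

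**Figure D2:**
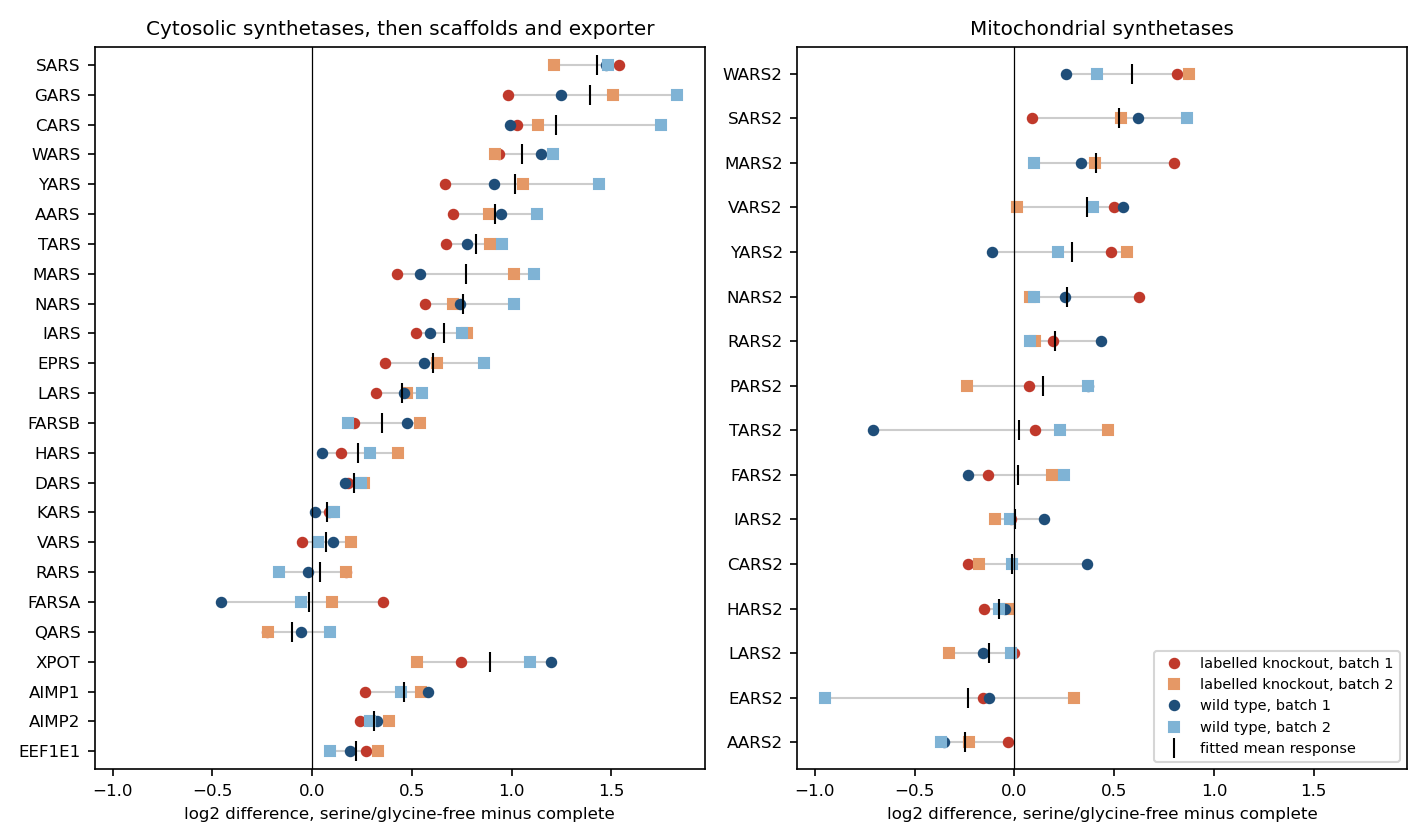
Medium response (log2 difference of FPKM + 1, serine/glycine-free minus complete) of all 40 genes in each of the 4 pairs of libraries, with the fitted mean response as a vertical tick, cytosolic genes followed by the exporter and scaffolds on the left and mitochondrial genes on the right. The upper 15 cytosolic genes and KARS lie right of 0 in all 4 pairs, while the mitochondrial genes scatter around 0 with 6 of 16 (WARS2, SARS2, MARS2, VARS2, NARS2 and RARS2) right of it in all 4 pairs and 2, HARS2 and AARS2, left of it in all 4.

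Mitochondrial synthetases had mean responses from -0.25 for AARS2 to 0.59 for WARS2, and none was called. The 4 with an unadjusted limma p under 0.05 were WARS2, SARS2, MARS2 and YARS2, at 0.59 ± 0.20, 0.53 ± 0.15, 0.41 ± 0.16 and 0.29 ± 0.11. Their unadjusted limma p were 0.0250, 0.0116, 0.0457 and 0.0460, and their adjusted p 0.354 to 0.491. SARS2, the mitochondrial seryl-tRNA synthetase, had 15.03 and 8.42 FPKM in labelled-knockout deprived libraries, against 14.1 and 5.50 FPKM in complete ones, and 14.9 and 7.91 FPKM in wildtype deprived libraries, against 9.35 and 3.90 FPKM in complete ones. The media overlapped between batches though not within them. SARS2 shares its locus with MRPS12, at 41.3 to 58.1 FPKM in all libraries, and with FBXO17, at 20.9 to 35.6 FPKM in batch 1 and at most 0.0795 FPKM in batch 2; the part of these overlaps was not tested.

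WARS2 had 15.01 and 7.56 FPKM in labelled-knockout deprived libraries, against 8.09 and 3.66 FPKM in complete ones, and 9.28 and 8.38 FPKM in wildtype deprived libraries, against 7.59 and 6.03 FPKM in complete ones. MARS2 had 6.45 and 8.39 FPKM in labelled-knockout deprived libraries, against 3.28 and 6.08 FPKM in complete ones, and 5.61 and 6.48 FPKM in wildtype deprived libraries, against 4.24 and 5.99 FPKM in complete ones. Both had their larger responses under the knockout label, and both sit at low levels where the added 1 FPKM damps the log2 difference. AARS2 had 8.31 and 5.07 FPKM in labelled-knockout deprived libraries, against 8.52 and 6.11 FPKM in complete ones, and 6.35 and 5.80 FPKM in wildtype deprived libraries, against 8.38 and 7.79 FPKM in complete ones. AARS2 and HARS2 were lower in all 4 pairs, as were 11.4% of all genes tested, and their mean responses of -0.25 ± 0.16 and -0.08 ± 0.16 did not pass the test (limma unadjusted p = 0.180 and 0.637).

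VARS2, NARS2 and RARS2 were also higher in all 4 pairs, with mean responses of 0.36 ± 0.15, 0.26 ± 0.14 and 0.20 ± 0.14 (limma unadjusted p = 0.0562, 0.104 and 0.187). IARS2, the most abundant mitochondrial synthetase in 7 of 8 libraries, had 36.1 and 49.1 FPKM in labelled-knockout deprived libraries, against 36.5 and 52.6 FPKM in complete ones, and 43.0 and 52.8 FPKM in wildtype deprived libraries, against 38.7 and 53.7 FPKM in complete ones. Its mean response was 0.00 ± 0.10, and its 4 ratios lay between 0.933 and 1.11. EARS2 and TARS2 were the most uneven, with responses from -0.95 to 0.30 and from -0.71 to 0.47, each with 1 wildtype pair far below the other 3. CARS2, FARS2, LARS2 and PARS2 had mean responses between -0.13 and 0.14, with unadjusted limma p from 0.406 for PARS2 to 0.919 for CARS2.

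As sets, the cytosolic genes had a median mean response of 0.63, the scaffold and export genes 0.39 and the mitochondrial genes 0.08, beside 0.02 over all genes tested and 0.01 over the 13080 protein-coding ones. None of the 40 was lower at unadjusted limma p under 0.05, beside 697 of all 17994 genes tested. Higher at that level were 13 of the 20 cytosolic genes, 3 of 4 scaffold and export genes and 4 of 16 mitochondrial genes, against 6.16% of all genes tested. Without both batch 2 libraries labelled knockout these counts were 12, 2 and 3, and the cytosolic and mitochondrial medians were 0.57 and 0.12. The mitochondrial count was 0 with no replicate block and 1 or 2 with 7 of the 8 single libraries left out, staying at 4 without the labelled-knockout complete library of batch 2. The mitochondrial median was 0.138 without the wildtype complete library of batch 1, 0.133 without the wildtype deprived one of batch 1 and 0.126 without the wildtype complete one of batch 2. The medians by pair in the labelled knockout were 0.40 and 0.67 for cytosolic and 0.08 and 0.09 for mitochondrial genes, and in wildtype 0.55 and 0.81 for cytosolic and 0.20 and 0.10 for mitochondrial genes. Summed FPKM of the cytosolic genes was 1747 and 1633 in labelled-knockout deprived libraries, against 1218 and 1019 in complete ones, and 1915 and 1707 in wildtype deprived libraries, against 1250.3 and 995 in complete ones. The mitochondrial sum was 259 and 217 in labelled-knockout deprived libraries, against 226 and 200.0 in complete ones, and 273 and 233 in wildtype deprived libraries, against 255 and 220.0 in complete ones. The cytosolic sum was thus 1.43 to 1.71 times as high in deprived medium and the mitochondrial sum 1.06 to 1.15 times.

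**Figure D3:**
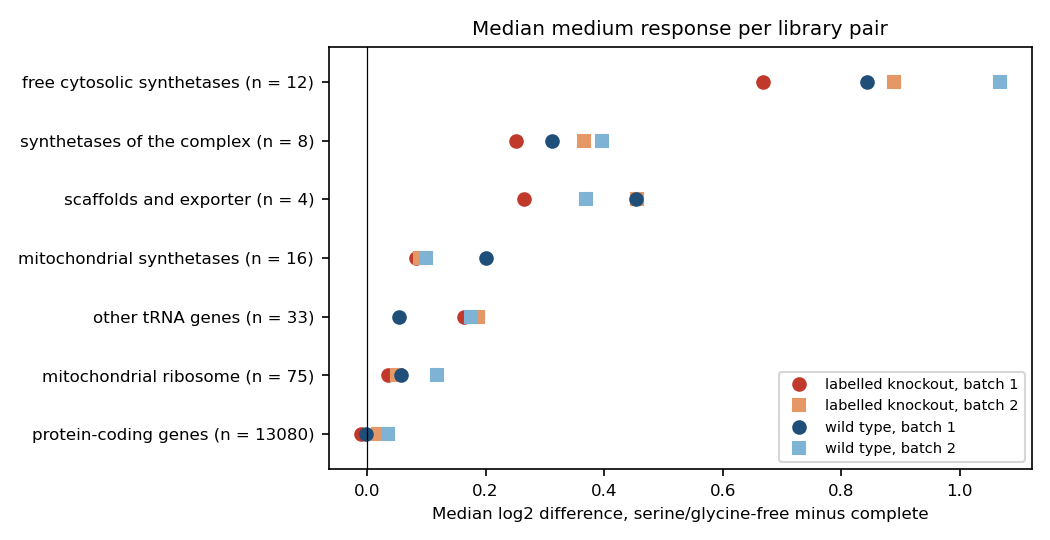
Median medium response of each gene set in the 4 pairs of libraries (log2 difference, serine/glycine-free minus complete). The 12 free cytosolic synthetases lie at 0.67 to 1.07, the 8 of the complex at 0.25 to 0.40, and the 16 mitochondrial ones at 0.08 to 0.20, beside protein-coding genes near 0.

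Other genes of tRNA handling, 33 of them tested, had a median mean response of 0.10. At unadjusted limma p under 0.05, 6 of the 33 were higher, against 6.16% of all genes tested, and 1 was lower, against 697 of 17994. The 4 with the smallest p were TSEN15 and TSEN34, subunits of the tRNA splicing endonuclease, TRNT1, which adds the CCA end to tRNA, and AARSD1, an alanyl-tRNA editing protein. TSEN15, TRNT1 and AARSD1 stood at 0.59 ± 0.11, 0.55 ± 0.12 and 0.46 ± 0.13 and TSEN34 at -0.41 ± 0.12 (limma adjusted p = 0.257, 0.285, 0.345 and 0.362), so none was called. The mitochondrial ribosomal proteins, 75 genes, had a median of 0.07. At unadjusted limma p under 0.05, 7 of them were higher, 9.33% beside 6.16% of all genes tested, and 3 were lower. Another 28 genes known as ATF4 targets outside tRNA charging had a median of 1.34, with 24 higher at that level; that list was chosen with results of these libraries known and is no independent evidence.

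For 13 amino acids 1 cytosolic gene, serving that amino acid alone, could be paired with 1 mitochondrial gene. Phenylalanine, with FARSA and FARSB beside FARS2, and glutamate and proline, with the joint EPRS beside EARS2 and PARS2, also have separate genes and were not paired. The cytosolic response exceeded the mitochondrial one in all 4 pairs for AARS, CARS, HARS, IARS, LARS, SARS, TARS, WARS and YARS, 9 of 13. It did so in 3 of 4 pairs for MARS and NARS, and in 1 of 4 for RARS and VARS. HARS and HARS2 share a locus in the deposited tables, so reads could be split between them, and the part of that overlap in their difference was not tested. The median difference over the 13 was 0.30 and 0.61 in the labelled knockout and 0.62 and 0.78 in wildtype, on the log2 scale. The widest gap was that of CARS over CARS2 (0.63 to 1.76) and of AARS over AARS2 (0.74 to 1.49). AARS2 was lower in all 4 pairs and CARS2 in 3, with 0.36 in the wildtype pair of batch 1. For serine both partners were higher in all 4 pairs, with SARS ahead of SARS2 by 0.62 to 1.45. For tryptophan the difference was 0.12 and 0.04 in the labelled knockout and 0.89 and 0.79 in wildtype, the WARS2 responses being 0.82 and 0.88 in the labelled knockout and 0.26 and 0.42 in wildtype. The interaction contrast for WARS2 itself was 0.51 ± 0.40 (limma unadjusted p = 0.248).

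**Figure D4:**
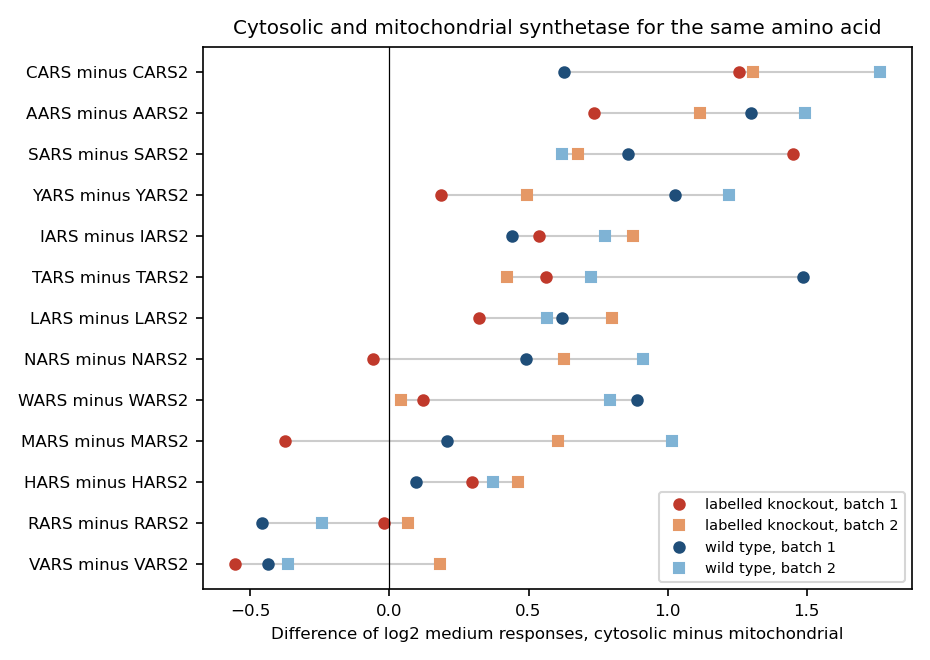
Cytosolic minus mitochondrial medium response (difference of log2 responses) for the 13 paired amino acids, 1 point per pair of libraries. All 4 points lie right of 0 in 9 of the 13 rows, CARS and AARS lie farthest right, and RARS and VARS lie mostly left of it.

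Levels differed between the compartments as well. In complete medium the cytosolic gene was the more abundant of the pair in all 4 libraries for 12 of 13 amino acids, with a median ratio of 4.28. The ratio was highest for MARS over MARS2, at 8.87 to 28.6, and CARS was the exception, with 0.699 to 2.39 times the FPKM of CARS2. In complete medium QARS led the cytosolic levels in both batch 1 libraries (163 FPKM in the labelled knockout and 144 FPKM in wildtype) and TARS in both batch 2 libraries (134 and 109 FPKM). In serine/glycine-free medium TARS was highest in 3 of 4 libraries and SARS, at 218 FPKM, in the labelled-knockout library of batch 1. FARSB or CARS was the lowest cytosolic gene in all libraries but the wildtype deprived one of batch 1, where FARSA was. The mitochondrial medians were 9.32 to 14.1 FPKM in deprived and 8.67 to 13.1 FPKM in complete libraries.

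Taken alone, each genotype label called none of the 40 genes after adjustment, against 0.0111% of all genes tested called higher in the labelled knockout and 0.0389% in wildtype. SARS was nearest, with 1.37 ± 0.15 in the labelled knockout (limma adjusted p = 0.178) and 1.48 ± 0.15 in wildtype (adjusted p = 0.0714). With protein-coding genes only SARS was called in wildtype (limma adjusted p = 0.0412). At unadjusted p under 0.05, 11 of 20 cytosolic, 1 of 4 scaffold and export and 3 of 16 mitochondrial genes were higher in the labelled knockout, against 3.34% of all genes tested. The 3 mitochondrial ones were WARS2, MARS2 and YARS2, a count that was 0 with no replicate block or without the labelled-knockout deprived library of batch 1, and 1 without any of the other 3 labelled-knockout libraries. In wildtype 12, 2 and 1 were higher at that level, against 3.72%, and the mitochondrial one was SARS2, a count of 0 to 2 over the alternatives (0 with no replicate block and without either wildtype library of batch 2, 2 without either labelled-knockout complete library). The fitted medians of the cytosolic set were 0.57 in the labelled knockout and 0.69 in wildtype, and those of the mitochondrial set 0.11 and 0.12.

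The difference between the responses, labelled knockout minus wildtype, was tested directly. None of the 40 genes had an unadjusted p under 0.05 in limma's interaction contrast, against 1.53% of all genes tested, and none was called, against 0.0611%. The smallest p was that of XPOT, -0.51 ± 0.23 (limma unadjusted p = 0.0704), whose responses were 0.74 and 0.52 in the labelled knockout and 1.20 and 1.09 in wildtype; with a block for each genotype label and batch its unadjusted p was 0.0275 (adjusted p = 1.00). YARS2 followed with 0.47 ± 0.23 (limma unadjusted p = 0.0865). For the leading cytosolic genes the differences were -0.10 ± 0.21 for SARS, -0.29 ± 0.29 for GARS, -0.25 ± 0.19 for WARS, -0.29 ± 0.30 for CARS and -0.31 ± 0.30 for YARS. An SE of 0.19 to 0.30 leaves differences of that size unresolved, so these values do not show that the responses were alike. The response was lower under the knockout label in both batches for 10 of 20 cytosolic, 1 of 4 scaffold and export and 5 of 16 mitochondrial genes, against 25.8% of all genes tested. FARSA and RARS responded in opposite directions under the labels in both batches, as did 6.31% of all genes tested.

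Levels were also compared between the labels in each medium. In serine/glycine-free medium none of the 40 differed at unadjusted p under 0.05, against 5.86% of all genes tested, and none was called, against 0.05%. The nearest were CARS (-0.49 ± 0.21, unadjusted p = 0.0632) and YARS (-0.48 ± 0.21, unadjusted p = 0.0650), lower in the labelled knockout in both batches (limma, labelled knockout minus wildtype). In complete medium RARS was the only 1 of 40 with an unadjusted p under 0.05, against 4.78% of all genes tested. It had 47.3 and 39.6 FPKM in the labelled knockout, against 62.9 and 53.8 FPKM in wildtype, a difference of -0.42 ± 0.14 (limma unadjusted p = 0.0231, adjusted p = 0.857), so it was not called; 0.0333% of all genes were.

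The batches differed in size of response. In the labelled knockout and wildtype alike the batch 2 response exceeded that of batch 1 for 14 of 20 cytosolic genes, as it did for 32.7% of all genes tested. In wildtype alone this held for 17 of 20, as for 53.7% of all genes. In wildtype MARS, GARS, CARS and YARS showed it most, with 1.11, 1.83, 1.75 and 1.44 in batch 2 beside 0.54, 1.25, 0.99 and 0.91 in batch 1. Their labelled-knockout responses were 1.01, 1.51, 1.13 and 1.06 in batch 2 beside 0.42, 0.98, 1.03 and 0.67 in batch 1. SARS had 1.48 in both wildtype batches and, in the labelled knockout, 1.21 in batch 2 beside 1.54 in batch 1. Of the 16 mitochondrial genes 5 had the larger response in batch 2 under both labels, and of the scaffold and export genes 0 of 4.

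The responses can be read beside the promoter letters shown above. The 7 cytosolic genes with the core in their window (AARS, CARS, GARS, IARS, MARS, NARS and TARS) had a median mean response of 0.82, and the 9 without it 0.23. Of the 18 genes with a window that were higher at unadjusted p under 0.05, 8 held the core, and of the other 16, 0 did. SARS and WARS, the 2 called genes, have no match in this window, nor has XPOT, which says only that these letters are not there. The E-box CACGTG, searched the same way, was in 1 of 16 cytosolic genes (IARS, where it does not overlap the other match), 1 of 4 scaffold and export genes (AIMP2) and 3 of 14 mitochondrial genes (CARS2, EARS2 and MARS2), beside 7.26% of all windows, or 8.78% of genes. These counts describe the windows and were not tested.

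**Figure D5:**
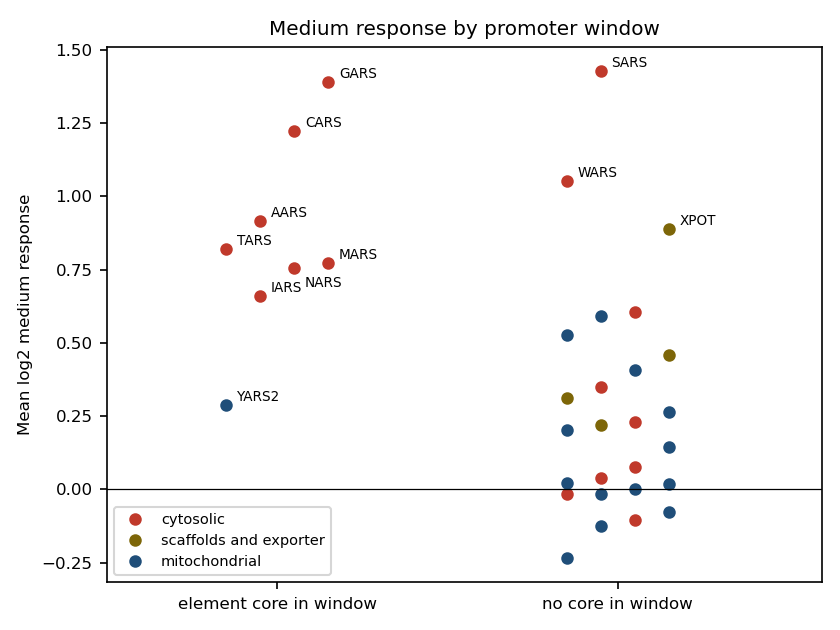
Mean log2 medium response (serine/glycine-free minus complete) of the 34 genes with a promoter window, split by whether the window holds the C/EBP-ATF core. All 8 genes with the core lie above 0, the 7 cytosolic ones between 0.66 and 1.39, while SARS, WARS and XPOT lead the genes without it.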

How the data were processed

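Total RNA of 8 hTERT-RPE1 cultures was sequenced as Illumina libraries, per the labels. Each batch has its own table of FPKM values, as the authors deposited them; the unit was inferred from the values and from Cufflinks, since no header names it. TopHat, Cufflinks, Cuffdiff and hg19 are named in the submitters' processing notes; the sources used here give neither versions nor strand settings. Tables were normalized separately, and 31 of the 40 genes share a locus with another gene in them, so reads may be split between overlapping genes. An exact 0 can be a failed estimate. Groups and batch numbers came from the labels, and libraries with equal numbers are 1 batch of treated cells, per the series text. Deviations of same-numbered libraries from their group means correlated at 0.650 to 0.775.

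The filter kept the 17994 genes that reach FPKM of 1 in 2 libraries. Limma 3.58.1 (R 4.3.3) fitted log2(FPKM + 1) with 4 group means and the batch as a block, and a prior with trend; two-sided p were adjusted by Benjamini-Hochberg over all genes (threshold 0.05). This left 3 residual degrees of freedom. The batch block is shared by both labels, so a batch difference particular to 1 label goes into the residual spread. With a block per genotype label and batch, 1679 of 17994 genes were higher at unadjusted limma p under 0.05 in the mean response. Among them were 14 cytosolic, 4 scaffold and export and 5 mitochondrial genes. Errors are SE. The p-values rest on 2 experiments. GENCODE 29 gave gene types (95.8% of tested genes matched by ID). RefSeq promoter windows were searched for both motifs on both strands. Alternative settings changed 1 choice each (pseudocount, filter, scaling, block, prior, genes or libraries). Steps were tested on simulated data, for the mean response. There 44 of 100 genes given a log2 change of 1 were called, and 83 of 100 given a log2 change of 2. Of the 17994 genes tested, 3 unchanged ones were also called. The members, gene lists and tests were chosen with earlier results of these data known. All 40 genes could be named; of the other tRNA genes, those with the 4 smallest p in the mean response.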

Additional observations from a re-analysis of the deposited data

Results flagged for a closer look

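FARSA, the alpha subunit of the cytosolic phenylalanyl-tRNA synthetase, moved in opposite directions under the labels in both batches. Its medium response was 0.35 and 0.098 in the labelled knockout (batch 1, then batch 2) and -0.46 and -0.058 in wildtype. The difference was 0.48 ± 0.27 in limma's interaction contrast (unadjusted p = 0.123, adjusted p = 1.00), so it did not pass the test. RARS, the arginyl-tRNA synthetase, had responses of 0.17 and 0.17 in the labelled knockout and -0.022 and -0.17 in wildtype, with a difference of 0.27 ± 0.19 (limma unadjusted p = 0.222, adjusted p = 1.00). Such opposite directions occurred in 2 of 40 genes here and in 6.31% of all genes tested.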

How the results depend on the processing

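All 20 genes with an unadjusted p under 0.05 in the mean response kept their direction under each of 18 alternatives. SARS stayed called in 5 of the 18 and WARS in 3, with SARS between 1.33 and 1.51. Over all genes, 20 were called higher and 4 lower in the mean response. A pseudocount of 0.1 gave 2 and 0, no filter 0 and 0, no replicate block 1 and 0, and leaving out both batch 2 libraries labelled knockout (chosen after seeing the data) 0 and 0. Quantile scaling gave 13 higher, a prior without trend 10, protein-coding genes only 34 (CARS, GARS and XPOT then joining SARS and WARS), and a replicate block per genotype label and batch 2 lower. Leaving out 1 library gave 0 to 17 higher and 0 to 4 lower. In the labelled knockout the cytosolic genes higher at unadjusted p under 0.05 numbered 11, with no replicate block 6, without both batch 2 libraries 7, and without 1 library 6 to 11. The wildtype cytosolic median (0.69) ran from 0.50 to 0.89 with 1 library left out. The mitochondrial median in the labelled knockout (0.11) was 0.12 with a pseudocount of 0.1, 0.117 with 0.5, 0.0897 with quantile scaling, 0.0998 with median scaling, 0.0820 without both batch 2 libraries, and 0.0743 to 0.184 with 1 library left out. In the mean response the mitochondrial median (0.08) ran from 0.0688 to 0.138 and the count at unadjusted p under 0.05 (4) from 0 to 5; in wildtype the median (0.12) ran from 0.0525 with quantile scaling to 0.157. For the interaction, 0 members had an unadjusted p under 0.05, 1 (XPOT) with the block per genotype label and batch, and 0 to 1 with 1 library left out. For the label in complete medium the count of 1 (RARS) was 2 with median scaling, 0 with no replicate block, with a prior without trend and with only the groups compared, 3 without both batch 2 libraries labelled knockout (RARS, EEF1E1 and NARS2), and 0 to 1 with 1 library left out. In serine/glycine-free medium it was 0, 1 without both (EEF1E1), and 0 to 2 with 1 library left out. The cause of these shifts was not tested. The mean response and the interaction need all groups, so a fit of only the groups compared gave no value for them. No scaling moved the all-gene median by over 0.1.

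Whether a gene that missed the threshold responded is not settled here. FPKM carry no fragment counts, so counting error cannot be given for genes at a few FPKM such as MARS2, PARS2 and AARS2. The knockout label is not checked by the ATF3 mRNA.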
